A study of Mus musculus with 5 samples.

Results

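The genes described here are the kainate receptor subunit genes *Grik1*, *Grik2*, *Grik3*, *Grik4*, and *Grik5* and the genes of their auxiliary proteins, *Neto1* and *Neto2*. These 7 genes were taken by name from 19938 genes with a named probe set (a group of array probes that reads 1 gene), and each was read by 1 probe set. Expression was measured in neurons of the primary somatosensory cortex (S1) of wild-type ICR mice at PD24, on 1 GeneChip Mouse Gene 1.0 ST array for each of 5 groups. Association neurons, which project to the primary motor cortex (M1) of the same hemisphere, were collected from L2/3, L5, and L6b. Callosal neurons, which project to the contralateral S1, were collected from L2/3 and L5. The projection was marked with Green RetroBeads injected 3 days earlier, all animals had received a tdTomato plasmid by *in utero* electroporation, and about 1000 cells per group were pooled by laser microdissection. The number of animals per pool is unstated, and captured tissue can include processes of neighboring cells.

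Kainate receptors are tetrameric glutamate-gated cation channels that act on both sides of the synapse, where they shape slow excitatory currents and regulate transmitter release. GluK1, GluK2, and GluK3 bind kainate with low affinity and can form channels by themselves, whereas GluK4 and GluK5 bind it with high affinity and need a low-affinity partner to form a working channel. Neto1 and Neto2 are transmembrane proteins with CUB domains that associate with the receptor and slow its gating, and Neto1 also binds NMDA receptors.

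Values are log2 signals minus the median signal of the same array, so that 0 is the median probe set and a difference of 1 is 2-fold. A gene was compared where any array showed it at or above that median. This held for 5 of the 7 genes and for 12632 genes in all, while *Grik1* and *Grik4* stayed below it in all 5 arrays. Each group has a single array and so no spread between replicates. No test was possible, and neighboring values cannot be ranked against an error. Instead, many differences of the 7 genes are set beside the share of the 12632 genes that were at least as far apart between the same arrays. Differences of single partner and marker genes are given without that share. Signals of different probe sets are not compared with each other as levels.

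The labeled layers were checked on marker genes. Of the 7 L6b markers with a named probe set, all 7 were at or above the array median in association L6b and 5 in each other array, with the complexin gene *Cplx3* at 5.22 in L6b and between -0.37 and 0.39 elsewhere. The log2 of the summed signal of 8 L2/3 markers was 6.95 and 6.71 in the L2/3 arrays and 3.72 to 4.86 in the others. For 7 L5 markers it was 6.49 and 6.47 in the L5 arrays, but also 6.41 in L6b, against 5.03 and 4.51 in L2/3, and the L5 marker *Etv1* was higher in association L2/3 (2.75) than in association L5 (1.65). For 7 L6a markers it was 4.64 to 4.92 with no array apart, though *Tle4* of this list stood at 2.91 in L6b and between -0.28 and 0.07 elsewhere. Such sums follow their largest signals. Among L5 markers this was *Pcp4*, at 5.99 to 6.16 in the L5 and L6b arrays and 3.86 and 3.33 in L2/3. *Rbp4* was instead lower in callosal L5 (1.12) than in the L2/3 arrays (2.23 and 2.20). *Calb1* and *Lamp5* had the largest signals of the L2/3 markers in the L2/3 arrays (5.32 to 5.82), whereas *Pou3f3* was highest in L6b (0.72). The vesicular glutamate transporter gene *Slc17a7* stood at 3.84 to 4.47 in all arrays, but over the 7 glutamatergic neuron genes the log2 of the summed signal was lowest in L6b, at 5.53 against 5.92 to 6.23 elsewhere. Of these genes *Slc17a6* was below the median in L6b (-0.30), and *Nrgn* stood at 1.82 there against 3.60 to 3.86 in the other arrays. Markers of other cells were also present. Of 15 GABAergic neuron genes, 12 or 13 were at or above the median in each array, and the log2 of their summed signal was 5.94 to 6.43 in L2/3 and L5 and only 4.81 in L6b. *Dlx5* and *Adarb2* of this list lay below the median in all arrays, and *Pvalb* did so in L6b (-1.38). For 10 myelin genes the log2 of the summed signal was 6.00 in L6b, 5.78 in L5 of association neurons, 5.14 in callosal L5, and at most 4.07 in the L2/3 arrays. The part of these cells in the values below was not tested, and in pooled cells a lower share of expressing cells cannot be told apart from less RNA per cell.

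Among the low-affinity subunits, *Grik2*, the gene of GluK2, gave the same deposited log2 signal, 7.32, in all 5 arrays. After subtraction of the medians the association arrays of L2/3, L5, and L6b stood at 1.61, 1.55, and 1.52, and both callosal arrays at 1.58. These small differences are those of the array medians alone, and no order of the arrays can be read from them. A value identical in all 5 arrays occurred in 329 of the 12632 genes (2.6%), and in 26 of 2542 genes (1.02%) with a mean signal within 0.5 log2 of that of *Grik2*. How the probes were combined is unstated, so an identical value does not show that the transcript was equally abundant.

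*Grik3*, the gene of GluK3, was above the array median in all 5 arrays and was highest in association L6b. Its signal was 1.51 in association L6b, 1.29 in callosal L5, 1.16 in association L5, 1.03 in association L2/3, and 0.88 in callosal L2/3. Both L5 arrays therefore lay above both L2/3 arrays, and L6b lay above all of them. The difference between L6b and association L2/3 was 0.48 log2, or 1.39-fold, and 28.6% of the compared genes were at least that far apart. Callosal L5 exceeded callosal L2/3 by 0.41, a size reached by 25.2% of genes, whereas association L5 exceeded association L2/3 by 0.13, which 58.8% of genes reached. The whole range over the arrays was 0.63 log2, and 55.5% of the compared genes had a smaller one.

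*Grik1*, the gene of GluK1, was dim, with signals of -0.37 to -0.26 relative to the array median. Its deposited log2 signal was 5.43 in 4 arrays and 5.51 in association L5. At least 4 identical values were found in 31.4% of the 7306 genes that stayed below the median in all arrays, against 11.7% of the compared genes. No difference of *Grik1* between projections or layers was therefore measured above the dim end of the arrays.

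Of the high-affinity subunits, *Grik5*, the gene of GluK5, differed most between the association arrays of L2/3 and L5. Its signal was 1.78 in association L2/3, 1.43 in both callosal arrays, 1.37 in association L6b, and 1.04 in association L5. The callosal arrays and association L6b shared the deposited value 7.17, so that only association L2/3 (7.49) and association L5 (6.81) departed from it, in opposite directions. Association L5 was 0.74 log2 lower than association L2/3, a 1.67-fold difference that 16.6% of the compared genes reached. In callosal neurons the same contrast of layers was 0. It rests on the shared deposited value, which does not show that the transcript was equally abundant in both layers. Set against callosal neurons of the same layer, association neurons were higher by 0.35 in L2/3 and lower by 0.39 in L5, sizes that 30.2% and 27.3% of genes reached.

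*Grik4*, the gene of GluK4, was below the median in all arrays. It stood at -0.25 in association L6b, -0.53 in both callosal arrays, -0.50 in association L2/3, and -0.56 in association L5. The deposited value was 5.21 in every array but association L6b, where it was 5.55. The L6b array was thus the nearest to the median, 0.31 log2 above association L5 and 0.25 above association L2/3. These sizes rest on dim signals, and 36.7% and 46.3% of the compared genes reached them.

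**Figure D1:**
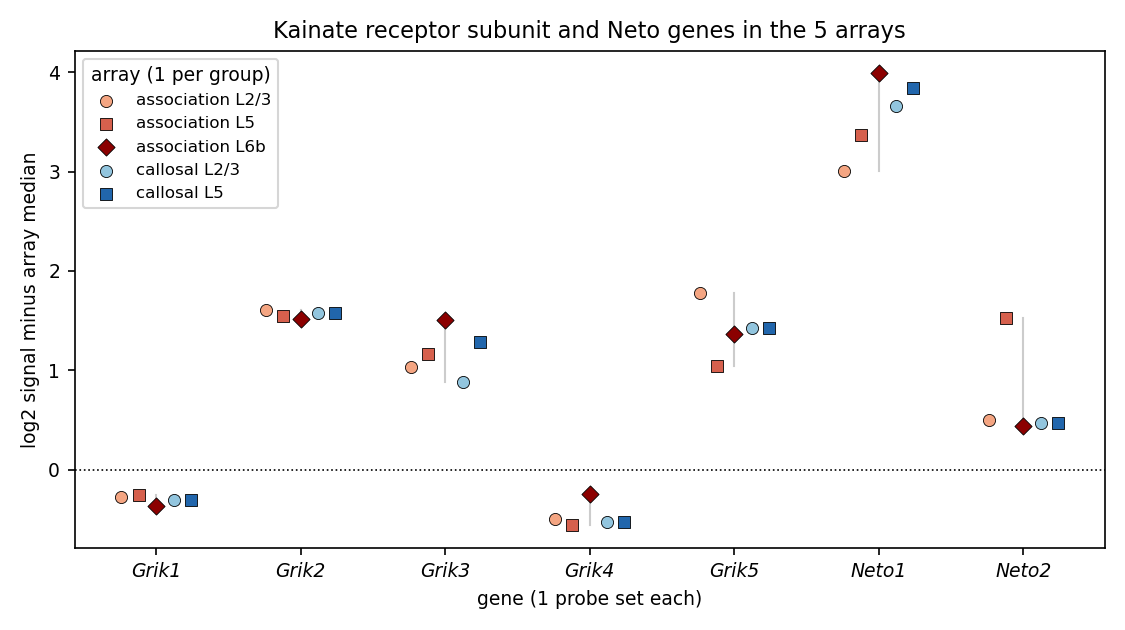
Median-subtracted log2 signal (vertical axis) of the 7 genes (horizontal axis), 1 point per array and no error bars because each group has 1 array. *Neto2* stands at 1.53 in association L5 and between 0.44 and 0.50 in the other arrays, *Neto1* spans 3.01 to 3.99, and *Grik1* and *Grik4* lie below 0 in all arrays. Grey lines join the lowest and the highest array of a gene.

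The auxiliary protein genes had wider ranges over the arrays than the subunit genes, 0.98 log2 for *Neto1* and 1.09 for *Neto2* against at most 0.74, and they were highest in different arrays. *Neto1* was highest in association L6b and lowest in association L2/3. Its signal was 3.99 in association L6b, 3.84 in callosal L5, 3.66 in callosal L2/3, 3.37 in association L5, and 3.01 in association L2/3. All 5 deposited values differed, from 8.72 to 9.79. Each callosal array lay above the association array of its layer, by 0.65 log2 in L2/3 (1.57-fold) and by 0.47 in L5 (1.39-fold), and 15.9% and 22.9% of the compared genes were at least that far apart in L2/3 and L5.

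Within the association neurons *Neto1* was ordered by depth, with L5 0.36 above L2/3 and L6b 0.62 above L5. Sizes like these were reached by 33.6% and 19.1% of the compared genes. The step from L2/3 to L6b was 0.98 log2, or 1.97-fold, just under the 2-fold limit, and 13.7% of genes were at least that far apart. It was 1.07 in the values as deposited, where 12.6% of genes differed by at least 2-fold between these arrays. In callosal neurons L5 was 0.18 above L2/3, a size that 43.8% of genes reached. The L6b array that held the highest *Neto1* signal also held the highest summed signal of myelin genes, as given above. Its summed signals of GABAergic and of glutamatergic neuron genes were the lowest of the arrays. The part of such cells in the *Neto1* signal was not tested.

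*Neto2* was set apart by a single array. Its signal was 1.53 in association L5, 0.50 in association L2/3, 0.47 in both callosal arrays, and 0.44 in association L6b. The 4 lower arrays had deposited values of 6.21 to 6.24, of which 3 were identical, and association L5 had 7.30. Association L5 was higher than callosal L5 by 1.06 log2 (2.08-fold), higher than association L2/3 by 1.03 (2.04-fold), and higher than association L6b by 1.09 (2.13-fold). Of the compared genes, 7.77%, 10.3%, and 9.36% were at least as far apart between these arrays. *Neto2* was at least 2-fold higher in association L5 than in each of the other 4 arrays, as were 166 of the 12632 genes (1.31%). The 3 differences share the association L5 array, so they are not separate observations. In that array the log2 of the summed signal of GABAergic neuron genes, 6.23, and of myelin genes, 5.78, lay inside the range of the other arrays, while that of oligodendrocyte precursor genes was the highest of the arrays (3.10 against 2.79 to 3.03). Some single markers were also highest there, among them the myelin gene *Mag* (3.96 against -0.37 to 1.47 elsewhere), the oligodendrocyte lineage gene *Olig2* (0.91 against -0.35 to -0.18), and the GABA synthesis gene *Gad1* (2.00 against 0.45 to 1.46). Other markers of the same lists were not. *Mog* was 1.28 there and 4.12 in L6b, *Gad2* was 0.45 there and 2.18 in association L2/3, and *Vip* was lowest there (-0.13). The part of such cells in the *Neto2* signal was not tested.

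Because *Neto1* and *Neto2* were read in the same arrays, the change of one relative to the other does not depend on how the arrays were scaled by a constant. The log2 signal of *Neto1* minus that of *Neto2* was 1.84 in L5 and 2.51 in L2/3 of association neurons, 3.19 in L2/3 and 3.37 in L5 of callosal neurons, and 3.55 in L6b. It was 1.71 larger in association L6b than in association L5, a 3.27-fold shift between the deep association groups. Between *Grik3* and *Grik5* the same measure was 0.89 larger in association L6b than in association L2/3 and 0.02 larger than in association L5. These shifts show unequal change of the genes of a pair and not which of them changed.

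The 5 compared genes were counted in 7 comparisons, 6 between single arrays and 1 of L6b against the mean of the other 4. Association and callosal neurons of L2/3 differed by at least 2-fold in none of the 5, where 8.55% of the compared genes did, and those of L5 in *Neto2*, where 8.46% did. L5 and L2/3 differed in *Neto2* for association neurons (10.8% of genes) and in none for callosal neurons (8.6%). L6b and L5 differed in *Neto2* (10.7%), and L6b and L2/3 in none (13.4%). Against the mean of the other 4 arrays none was at least 2-fold apart in L6b (8.99%), with *Neto1* at 0.52, *Grik3* at 0.42, *Grik5* at -0.05, *Grik2* at -0.06, and *Neto2* at -0.30. Counts of 0 or 1 of 5 genes lie near these shares, and nothing particular to the family is read from them.

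Signed medians over the 5 genes lay between -0.13 and 0.33. Without sign, the median was 0.39 between association and callosal L5 and 0.41 between L6b and association L2/3, against 0.14 and 0.21 over all compared genes. It was 0.15 between the L2/3 projections and 0 between the callosal layers, against 0.16 and 0.13. These medians of 5 genes were not tested. The signed median difference between L6b and association L5 was 0.33, against -0.03 over all compared genes, and that between L6b and association L2/3 was -0.06, against -0.09. In callosal neurons the signed median of L5 minus L2/3 was 0 in both sets, with *Grik2*, *Grik5*, and *Neto2* identical in the callosal arrays. Between association and callosal neurons the signed medians were 0.03 in L2/3 and -0.13 in L5, against 0.03 and -0.03 over all compared genes.

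**Figure D2:**
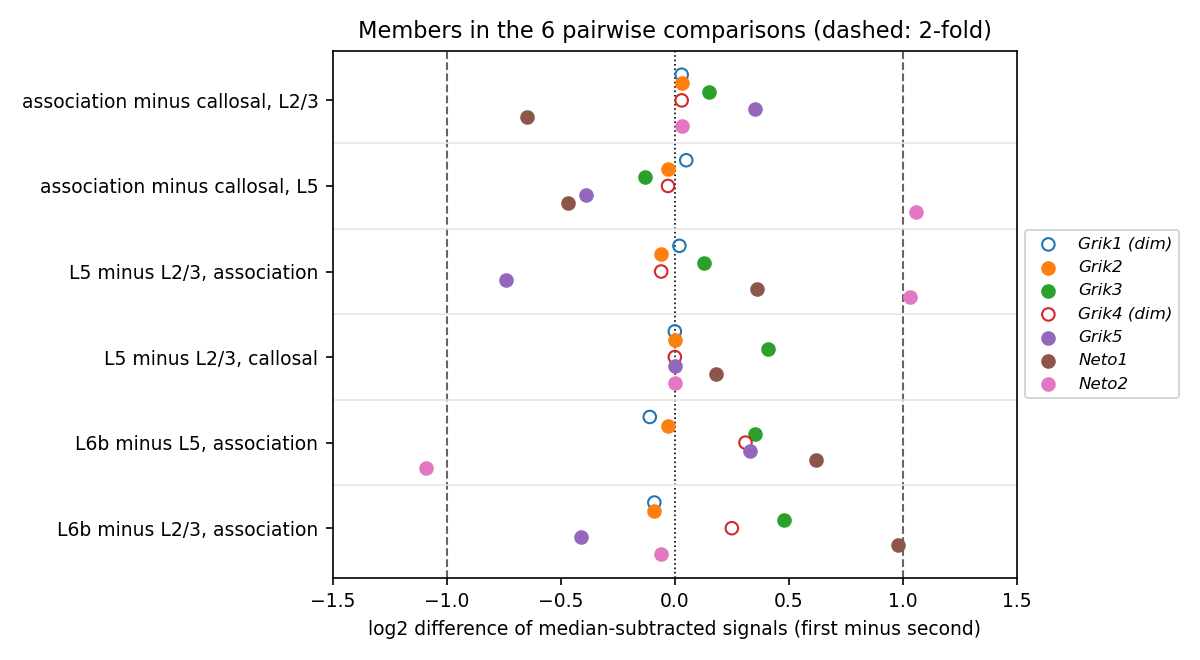
Log2 differences of median-subtracted signals (horizontal axis) of the 7 genes in the 6 comparisons between single arrays (vertical axis), 1 point per gene, with open points for *Grik1* and *Grik4*, which stayed below the array median. Dashed lines mark 2-fold. *Neto2* lies beyond them in the 3 comparisons that hold association L5, and *Neto1* reaches 0.98 between L6b and association L2/3.

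**Figure D3:**
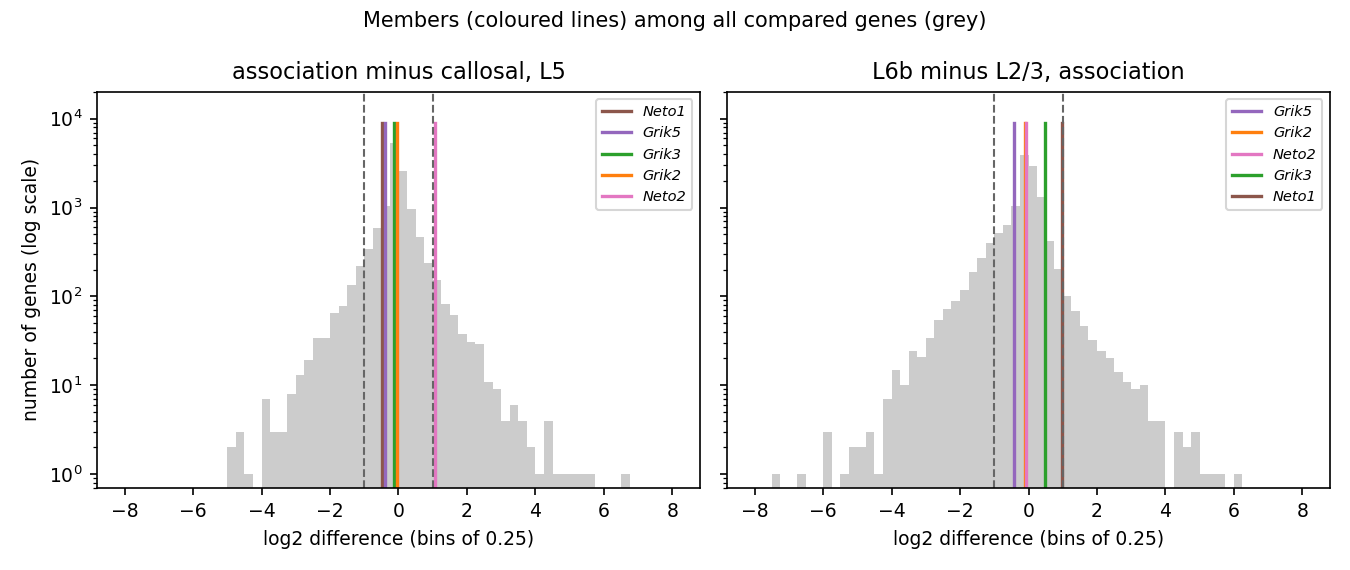
Number of genes (vertical axis, log scale) by log2 difference (horizontal axis, bins of 0.25) for all 12632 compared genes (grey), with colored lines at the 5 kainate receptor and Neto genes that were compared. In L5 the association minus callosal difference of *Neto2* is 1.06, and between L6b and association L2/3 that of *Neto1* is 0.98. Both lie inside the grey distributions, which reach well beyond the dashed 2-fold lines on either side.

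With the array medians subtracted, *Neto2* was the only one of the 7 genes with a range of at least 1 log2 (*Neto1* had 0.98, or 1.07 as deposited), and the genes most like it were sought by the root mean square distance between profiles centered on the gene's own mean over the 5 arrays. Among 11918 candidate genes the nearest was *Slc38a1*, which encodes an amino acid transporter that carries glutamine, at a distance of 0.0117 log2. Its signal was 3.18 in association L5 and 2.07 to 2.16 in the other arrays. The next was *Frmd5*, which encodes a FERM domain protein, at a distance of 0.0214, with 1.81 in association L5 and 0.73 to 0.81 elsewhere. Both profiles consist of association L5 above 4 nearly equal arrays, which is likeness over 5 values only. *Neto2* had 3 identical deposited values, and 36.4% of the compared genes had identical values in at least 3 arrays. The part of such ties in the small distances was not tested.

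The start of *Neto2*, the gene with a 2-fold difference, is shown for its sequence context, although the arrays measured transcripts and not promoters. Start site windows of RefSeq on GRCm38.p6 were used for *Grik2*, *Grik3*, *Grik4*, *Grik5*, and *Neto2*, and none was used for *Grik1* and *Neto1*. Of 6 windows, 1 of *Neto2* lay before the annotated gene for at least 200 bases, and these 222 bases upstream of the gene are given on the minus strand, chr8:85700953-85701174, with GC boxes in capitals.
Neto2: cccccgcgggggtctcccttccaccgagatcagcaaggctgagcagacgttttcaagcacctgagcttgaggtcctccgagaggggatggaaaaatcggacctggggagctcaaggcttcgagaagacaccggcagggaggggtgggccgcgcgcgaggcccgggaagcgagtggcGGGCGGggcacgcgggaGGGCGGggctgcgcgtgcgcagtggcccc
The stretch had a GC content of 70.3% and 22 CpG dinucleotides, where the median over 32851 windows of this length was 5. It held 2 copies of the GC box GGGCGG (or CCGCCC on the other strand), a motif found in 28.8% of the windows. The TATA box TATAAA (10.1% of windows) and the CCAAT box CCAAT (31.2%), searched on both strands, were not found in it.

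Several partners and regulators of kainate receptors were lower in L5 and L6b than in L2/3 of association neurons. Both comparisons share the association L2/3 array, which stood above every other array by 2-fold or more in 295 genes and below in 20, while L6b stood below every other array by that much in 356. The part of these arrays in the partner differences was not tested. Of 21 such genes listed, 18 had a named probe set and all 18 reached the array median. The list was chosen with earlier results of these data known, so its counts are a description and not a test. L5 was at least 2-fold lower than L2/3 in 6 of the 18 for association neurons (*Dlg4*, *Cask*, *Prkca*, *Camk2a*, *C1ql3*, and *Nrxn3*), where 7.36% of all compared genes were, and in *Prkca* alone for callosal neurons, where 8.6% of genes were at least 2-fold apart in either direction. L6b was at least 2-fold lower than association L2/3 in 5 (*Cask*, *Prkca*, *Camk2a*, *C1ql3*, and *Nrxn3*), where 10.6% of genes were, and lower than association L5 in 2 (*Camk2a* and *C1ql3*), where 7.16% were. None of the 18 was at least 2-fold higher in these 4 comparisons. The median over the 18 was -0.20 for L5 minus L2/3 and -0.21 for L6b minus L2/3 in association neurons, against -0.06 and -0.09 over all compared genes.

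Of the partner genes compared, *C1ql3* had the widest range. *C1ql3*, which encodes a secreted C1q-like protein that binds kainate receptors at hippocampal mossy fiber synapses, stood at 3.57 in callosal L2/3, 3.43 in association L2/3, 3.05 in callosal L5, 2.01 in association L5, and -0.06 in association L6b. The L6b signal was thus below the median of its array, 2.07 log2 under association L5 and 3.49 under association L2/3. Its homolog *C1ql2* ranged only from 0.43 to 0.71. *Nrxn3*, the gene of the presynaptic receptor neurexin 3, was 2.51 in association L2/3 and 1.24 to 1.76 in the other arrays.

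Of the kinase genes, *Prkca*, which encodes protein kinase C alpha, was 2.73 in callosal L2/3, 1.79 in association L2/3, 1.63 in callosal L5, 0.21 in association L5, and -0.40 in association L6b. In both projections L2/3 was higher than L5, by 1.58 log2 in association and 1.10 in callosal neurons. In L5 *Prkca* was 1.42 lower in association than in callosal neurons, and *C1ql3* was 1.04 lower, or 0.94 under quantile normalization. These were the 2 genes of the 18 that were at least 2-fold apart between the L5 projections, as were 8.46% of all compared genes. *Camk2a*, the gene of CaMKII alpha, was 2.00 lower in L6b than in association L5 and 3.34 lower than in association L2/3.

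Among the scaffold genes, *Dlg4*, which encodes PSD-95, and *Cask* were highest in association L2/3, at 4.34 and 4.36. *Dlg4* was 2.62 to 3.36 and *Cask* 2.84 to 3.36 in the other arrays. In L2/3 they were higher in association than in callosal neurons by 1.21 and 1.09, the only 2 of the 18 at least 2-fold apart there, where 8.55% of all compared genes were. *Grip2* was 0.81 in association L5 and 0.14 to 0.26 elsewhere, an array pattern with the same single high array as *Neto2* but 0.67 log2 above association L2/3. *Adarb1*, which encodes an enzyme that edits kainate receptor transcripts, was 2.40 to 2.44 in all arrays, and the related *Adar* was 0.56 to 0.79. *Snap25*, the gene of a membrane fusion protein, was 6.72 to 6.90.

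**Figure D4:**
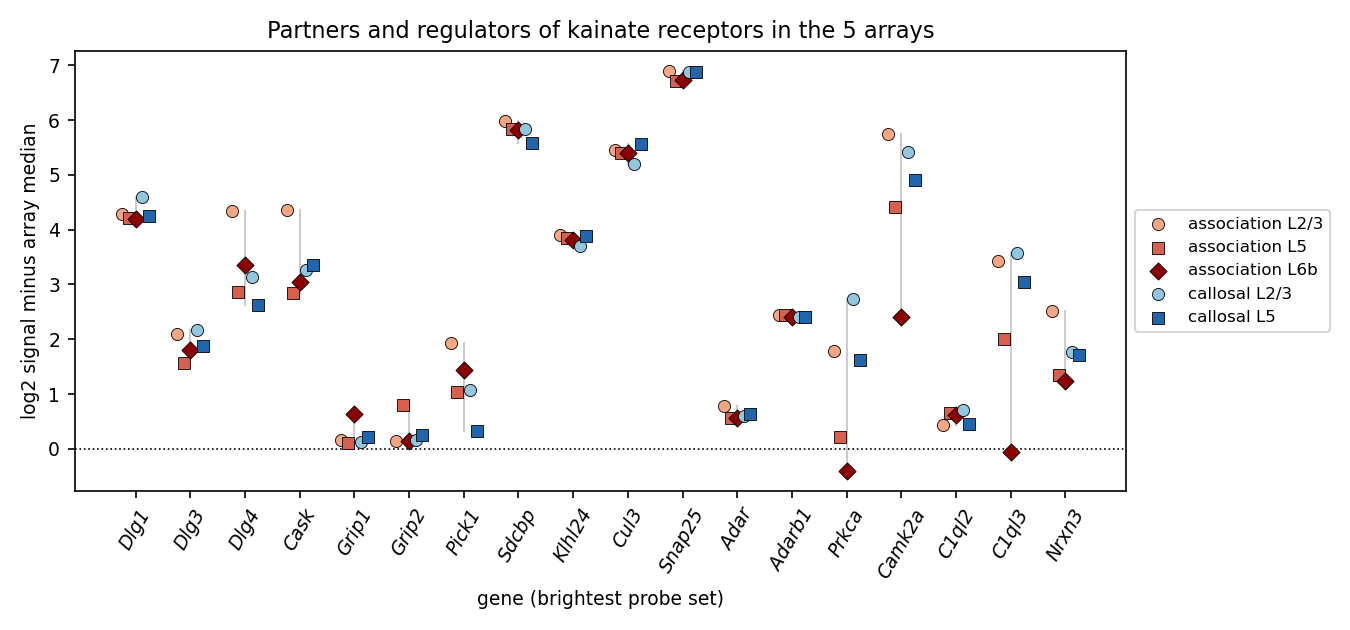
Median-subtracted log2 signal (vertical axis) of the 18 partner and regulator genes (horizontal axis), 1 point per array, with grey lines from the lowest to the highest array. *C1ql3*, *Camk2a*, and *Prkca* are lowest in association L6b (-0.06, 2.41, and -0.40), and *Dlg4* and *Cask* are highest in association L2/3 (4.34 and 4.36). *Adarb1* stays between 2.40 and 2.44.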

How the data were processed

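The authors deposited 1 table of log2 signals for 35556 probe sets on 5 arrays, with 2 decimals and values from 1.11 to 14.2. Per the submitters' processing notes the software was Affymetrix Expression Console, with neither version nor summarisation method given in the sources used here. The authors' methods name log transformation, global normalization, and centering, but the genes of the deposited table are not centered. Identical values across arrays can hide differences or turn small ones into ties.

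The platform annotation gave 1 symbol for 21789 probe sets, 1621 had several and were not used, and 12146 are unnamed here. The array median (5.71 to 5.80) was subtracted. For each gene the probe set with the highest mean was used, and genes at or above the median in at least 1 array were kept. A 2-fold difference is a rule of size without a p-value. Genes, partner lists, and comparisons were chosen with earlier results of these data known. Named were all 7 genes, partners at least 2-fold apart, the 2 nearest profiles of genes with a range of at least 1 log2, and markers of layers and cell types. Single markers quoted as high, low, or below the median in an array were picked by these values. *Grip2*, *Adarb1*, *Adar*, *C1ql2*, and *Snap25* were chosen after their values were seen. Other partners compared were *Dlg1*, *Dlg3*, *Grip1*, *Pick1*, *Sdcbp*, *Klhl24*, and *Cul3*. Python 3.11.15 and pandas 2.3.3 were used, and the steps were tested on simulated data. The number of arrays, 1 per group, limits the precision.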

Additional observations from a re-analysis of the deposited data

Results flagged for a closer look

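*Grik5* and *Grik3* differed between association and callosal neurons in opposite directions in L2/3 and L5. For *Grik5* the association minus callosal difference was 0.35 log2 in L2/3 and -0.39 in L5, and these values are 0.74 apart. Both callosal arrays had the same *Grik5* signal. The 0.74 is thus the difference between association L2/3 and association L5 given above, and not a further result. For *Grik3* the association minus callosal difference was 0.15 in L2/3 and -0.13 in L5, which are 0.28 apart. In each of these layers 52.7% of the compared genes were at least as far apart. Each value rests on 1 array per group, and the difference between the layers was not tested.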

How the results depend on the processing

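Other scalings (values as deposited, the 75th percentile subtracted, and quantile normalization), probe set averaging, other filters, and other folds were tried. Of 49 differences of single genes, 24 were at least 0.15 log2 in size and all 24 kept their sign under the 4 scalings, while 20 of the 25 smaller ones did not. The scalings moved a difference by at most 0.232 log2. Kept signs therefore follow largely from these small shifts and say nothing about spread between replicates. Between L6b and association L2/3, *Neto1* was at 1.07 as deposited, 1.14 with the 75th percentile subtracted, and 1.20 under quantile normalization, so the count of genes at least 2-fold apart was 1 under each of these in place of 0. At 1.5-fold the count was 1 for this comparison and for association against callosal neurons of L2/3, and 2 for L5 against L2/3 and for L6b against L5 in association neurons. At 4-fold every count was 0, also that of genes apart from every other array. The share of all compared genes past 1.5-fold or 4-fold is not given here, so nothing is read from the counts at these folds. The filters and leaving an array out of the mean of the other 4 changed no count, though the 75th percentile filter kept *Neto2* through association L5 alone. Probe set averaging could not change one, since each of the 7 genes has 1 probe set. Of the 21 partner differences past 2-fold, only that of *C1ql3* between the L5 projections (-0.94 under quantile normalization) lost this size under another scaling. No paired analysis was possible because each group has 1 array. Signal over background is limiting for *Grik1* and *Grik4*, which were dim in all arrays.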
